A study of Anguilla anguilla with 12 samples.

Results

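The neural and endocrine miRNA families miR-7, miR-9, miR-124, miR-132 and miR-218 were listed at 18 of 820 predicted precursors in eel liver. They were taken by name for 8 families. The list names a precursor after a zebrafish miRNA whose seed, bases 2 to 8, equals its own. No entry was named for the other three, miR-129, miR-138 and miR-212, which does not show that they are absent. Reads did not enter the rule by name, though the families were chosen with earlier results of these data known. The livers came from 12 yellow European eels (Anguilla anguilla), the growth stage of this fish, 6 sampled in Arcachon Bay, described by the study as pristine, and 6 in the Gironde Estuary, described as polluted. The list holds 1 pooled value for each precursor and no column for an eel, so no spread between eels and no comparison of the sites is given here. In pooled tissue, fewer cells of a type and less RNA per cell cannot be told apart.

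MicroRNAs are cut from hairpin precursors and guide Argonaute proteins to messenger RNAs, mainly through the seed. The program miRDeep2, which made the list, calls the arm it takes as the product mature, the opposite arm star and the part between them loop. In vertebrates, miR-124 is known as an abundant miRNA of neurons, miR-9 from neural progenitors and brain development, and miR-218 from motor neurons. In mammals, miR-7 is enriched in endocrine cells of the pancreatic islet and the pituitary. The miR-132 and miR-212 genes lie side by side in mammals and are induced by neuronal activity, and their main product there comes from the 3p arm, the second arm of the hairpin.

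The 18 precursors carried 12 distinct mature sequences, which are shown because their letters past the seed separate close relatives from sequences that share the seed only. Capitals mark the seed, and the number after the name is the scaffold of the eel genome assembly on which the precursor lies. The sequences with the miR-7 seed were:
miR-7b, scaffold 21638: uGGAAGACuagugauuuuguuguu
miR-7b, scaffolds 5946 and 7021: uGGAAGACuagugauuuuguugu
miR-7b, scaffold 3838: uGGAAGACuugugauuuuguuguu

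The sequences with the miR-218 seed, of which the first pair share their first 20 bases, were:
miR-218b, scaffold 422304: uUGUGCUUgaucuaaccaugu
miR-218b, scaffold 2111: uUGUGCUUgaucuaaccaugcgu
miR-218b, scaffold 12378: aUGUGCUUgauauuacuuauga

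The sequences with the miR-9 seed, alike in a row over their first 8 bases, were:
miR-9-5p, scaffolds 755 and 5954: uCUUUGGUuaucuagcuguaug
miR-9-5p, scaffold 3366: uCUUUGGUccuguuucuguggcc

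The miR-124 names cover different seeds, and both arms of miR-132 are given because the star arm carries the seed that miR-132 is known for:
miR-124-3p, 5 scaffolds: uAAGGCACgcggugaaugc
miR-124-5p, scaffold 8997: uGUGUUCAgggguauauuucuga
miR-124-5p, scaffold 25576: uGUGUUCAggacuguucagug
miR-132-5p, scaffold 907, mature arm: aCCGUGGCuuuagauuguuacu
miR-132-5p, scaffold 907, star arm: uAACAGUCuacagccauggucgc

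With each mature sequence counted once, the 12 sequences held 381276 of 272589277 mature reads. That was 0.140% of the pooled reads (exact binomial 95% interval 0.139% to 0.140%). The interval treats reads as independent counts and holds no spread between eels, since the list has 1 pooled value per precursor. Copies from amplification are not marked by molecular identifiers, so it may be too narrow even for counting error. The share was 0.405% among precursors with a miRDeep2 score of at least 4, a setting that leaves out miR-122, and for miR-7 alone it was then 0.391%. miR-7 made up 95.5% of the reads of these families, with 363935 reads or 0.134% of the list. Its shorter sequence lies within a longer one, so shared reads may be counted in both. With contained sequences counted once, miR-7 held 269682 reads (0.0992%) and all these families 287023 (0.106%). The 3 miR-218 sequences held 16497 reads or 0.00605%. The other families had few reads: miR-9 held 409 reads (0.000150%), miR-124 held 234 (8.58e-05%) and miR-132 held 201 (7.37e-05%). Together, the families other than miR-7 held 17341 reads. By the same count, miR-451, tied to red blood cells, held 0.156%, and miR-216, miR-217 and miR-375, tied to pancreas or gut, 0.0671%. miR-1 and miR-499, tied to muscle, held 0.00608%, miR-126, tied to endothelium, 0.763%, and miR-122, miR-192 and miR-194, tied to hepatocytes, 66.5%. No entry was named for miR-144, also looked up for red blood cells, or for miR-133 and miR-206, looked up for muscle. The median of the 12 sequences was 303 reads, against 4707 for the 188 seed-matched sequences of other families and 67 for all 676 distinct sequences.

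**Figure D1:**
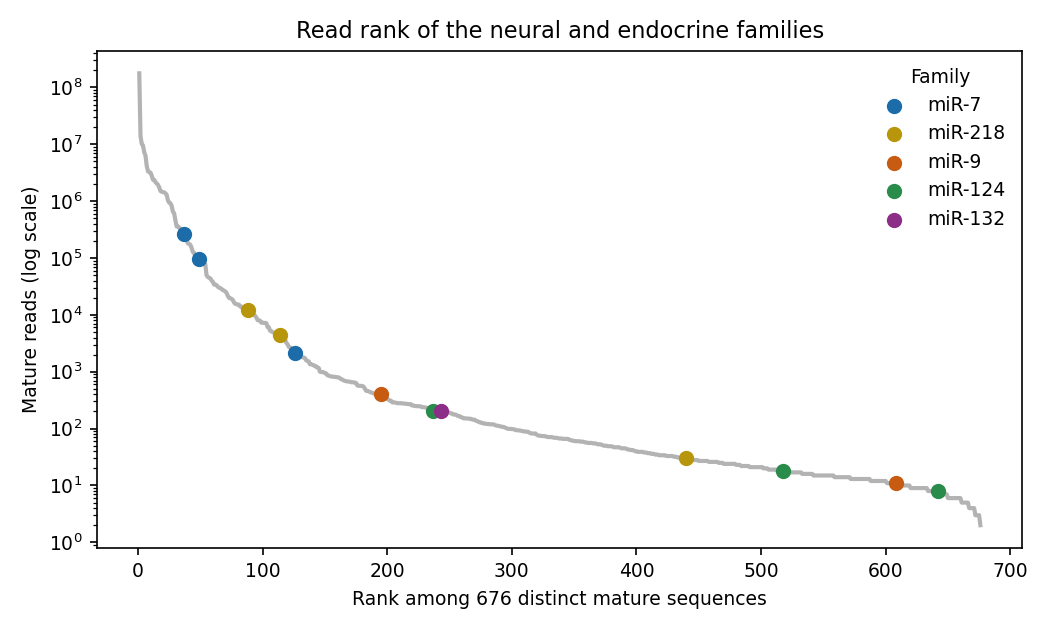
Mature reads (log axis) of 676 distinct mature sequences by rank (grey line), with the 12 sequences of the neural and endocrine families as coloured points. The miR-7 sequences reach rank 37 and the miR-218 sequences rank 88, while miR-9, miR-124 and miR-132 start at ranks 195, 237 and 243.

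miR-7 was listed at 4 precursors, all with the mature sequence on the 5p arm. The precursor on scaffold 21638 (3646 to 3709, plus strand) had 267587 mature reads, 13 star reads and 5 loop reads, and its mature sequence was at rank 37 of 676. A second mature sequence, 1 base shorter, was listed on scaffold 5946 (11547 to 11604, minus strand) with 94253 reads and on scaffold 7021 (6964 to 7027, minus strand) with 93945. The lower of these counts was 99.7% of the higher, so the reads of both copies appear to be the same reads counted at each. The 23 bases they share are also the first 23 bases of the longer sequence, and the precursors separate at base 24, which is u on scaffold 21638 and g on the other two. Reads that end at base 23 or before can therefore belong to any of the 3 precursors. If such reads were counted at each, the excess of 173334 reads on scaffold 21638 would be reads that were not shared. Lengths of single reads are not listed, so what the excess measures was not tested. The star arms of scaffolds 5946 and 7021 share 18 bases in a row, while that of scaffold 21638 shares 9 and 10 with them. The hairpins themselves are not copies, since their loops and parts of their star arms differ:
miR-7b precursor, scaffold 21638: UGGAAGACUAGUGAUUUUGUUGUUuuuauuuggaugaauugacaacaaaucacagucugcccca
miR-7b precursor, scaffold 5946: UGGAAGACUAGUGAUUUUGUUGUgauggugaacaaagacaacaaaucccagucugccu
miR-7b precursor, scaffold 7021: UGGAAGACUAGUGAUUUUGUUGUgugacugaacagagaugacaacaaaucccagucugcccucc
Capitals mark the mature arm here. The fourth precursor, on scaffold 3838 (18373 to 18435, minus strand), had 2095 mature reads and no star read. Its mature sequence differs from that of scaffold 21638 by A10U alone, counted from the 5′ end, with the base of scaffold 21638 first. It held 0.783% as many reads as the sequence of scaffold 21638.

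miR-218 had a pair of close sequences and 1 that shares little past the seed. The precursor on scaffold 422304 (169 to 228, minus strand) had 12096 mature reads and 1 star read, and that on scaffold 2111 (127704 to 127761, plus strand) had 4371 mature reads and no star read. Both mature sequences lay on the 5p arm, at ranks 88 and 114. Reads that end within the shared 20 bases cannot be assigned to either. The third, on scaffold 12378 (7593 to 7647, plus strand), had 30 reads on the 3p arm, the opposite arm to the other two, and matched the most abundant sequence at 13 of 21 bases.

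The miR-9 and miR-124 names also joined close copies with sequences that share a seed. For miR-9-5p, the precursors on scaffold 755 (128582 to 128642, plus strand) and scaffold 5954 (35793 to 35853, plus strand) were identical over all 61 bases, and both listed 398 mature and 16 star reads. A pair of genes and a region placed more than once in the assembly cannot be told apart from these counts. The other miR-9-5p entry, on scaffold 3366, had 11 reads and matched them at 14 of 22 bases. For miR-124-3p, 5 precursors had the same 19-base mature sequence on the 3p arm and the same star sequence, with 207 reads on scaffolds 313, 406, 6118 and 6551 and 208 on scaffold 1079. They differed only in the loop, of which there were 4 forms, since the precursors on scaffolds 406 and 1079 were identical. The loops are shown because they are the only letters that tell the copies apart:
miR-124-3p loop, scaffolds 406 and 1079: uuaaugucauacaau
miR-124-3p loop, scaffold 313: uuaauguccauacaau
miR-124-3p loop, scaffold 6551: uuaaauguccauacaau
miR-124-3p loop, scaffold 6118: uuaucuguccauacaau
No loop read was listed for any of them, so the reads do not show which copies were used. Both entries named miR-124-5p, with 18 and 8 reads, lay on the 3p arm of their hairpins, against their name. Neither shared more than 5 bases in a row with the 5p arm of the miR-124-3p precursors. The precursor with 8 reads, on scaffold 25576, holds a repeat of 12 bases, against a median of 4 bases for the longest repeat within the 18 precursors and of 5 in the whole list.

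**Figure D2:**
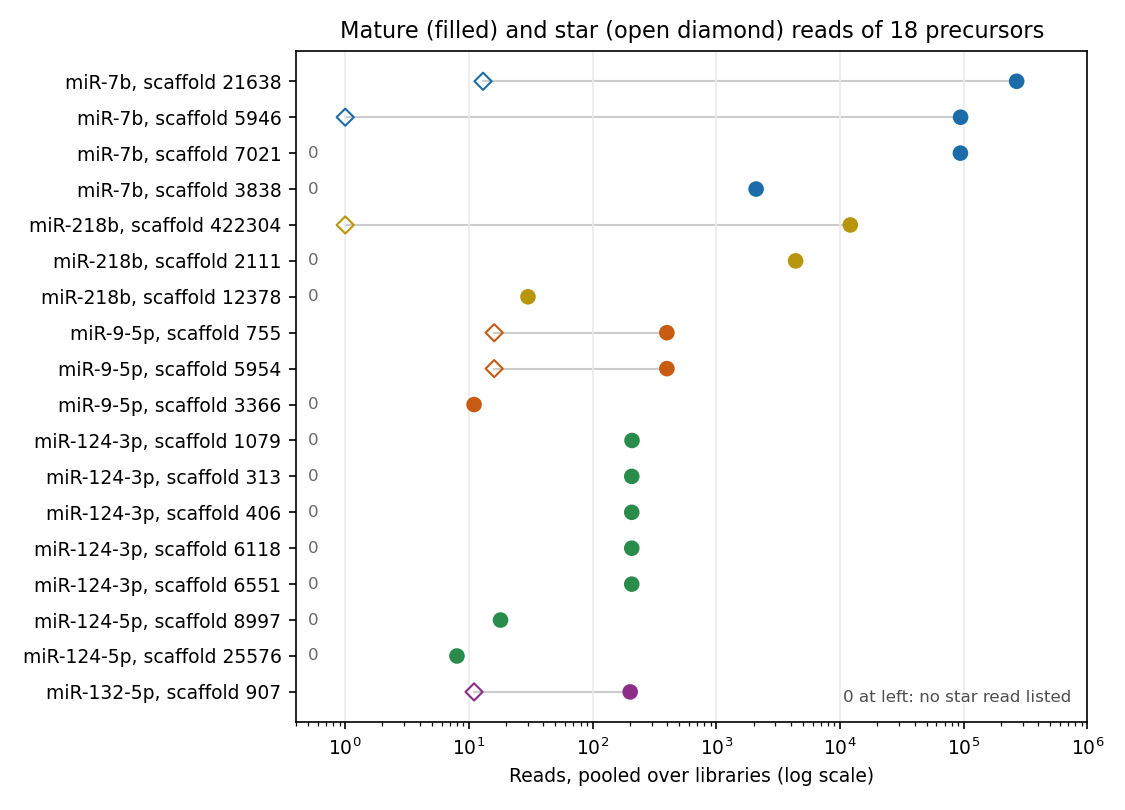
Mature reads (filled circles) and star reads (open diamonds) on a log axis for each of the 18 precursors, named with its scaffold; a 0 at the left marks a precursor with no star read. miR-7b spans 2095 to 267587 mature reads with at most 13 star reads, while miR-9-5p on 2 scaffolds and miR-132-5p have 11 to 16 star reads beside only 201 to 398 mature reads.

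Star reads were listed for 6 of the 18 precursors (33.3%), against 199 of 293 seed-matched precursors of other families (67.9%). In the whole list 528 of 820 precursors (64.4%) had them. The 18 precursors include copies that share reads, so this is a description of the list. By distinct mature sequence, 5 of 12 had a star read, a count not given here for other families and not comparable with the shares by precursor. The median star share of these families was 0% over 17 precursors. It was 0.0813% over 283 seed-matched precursors of other families and 0.402% over 792 precursors of the whole list. These medians were not tested against each other, because copies share reads. Arm use differed between the neural and endocrine families. Among them, miR-132-5p gave the highest star share, 5.19% with 11 star beside 201 mature reads (exact interval 2.62% to 9.09%). miR-9-5p on scaffolds 755 and 5954 followed with 3.86% (exact interval 2.22% to 6.20%). The star share of the most abundant miR-7b precursor was 0.00486% (exact interval 0.00259% to 0.00831%). The intervals of miR-132-5p and miR-9-5p overlapped, and that of miR-7b lay below both. No star read was listed for miR-124-3p, where a count of 0 in 207 reads allows a share of up to 1.77%, the upper end of the exact interval. For miR-7b on scaffold 7021, a count of 0 in 93945 reads allows up to 0.00393%, again the upper end of the exact interval. Mature reads of miR-7b can be shared between precursors, so these miR-7b shares divide by reads that may come from other loci. By its own reads, the star share of a single miR-7b precursor could be higher and cannot be given.

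A single star read went with a change of several orders of magnitude in the miRDeep2 score, a log-odds score with no upper limit. The miR-7b precursor on scaffold 5946, with 94253 mature reads and 1 star read, scored 48055.1. Its counterpart on scaffold 7021, with the same mature sequence, 93945 mature reads and no star read, scored 3. In the same way, miR-218b scored 6170 with 1 star read and 3.6 with none. Of the 18 precursors, the 6 with a star read scored 111.6 or more and the 12 without scored 3.6 or less. In the whole list none of the 292 precursors without a star read scored 4 or more, their highest score being 3.9, so this holds beyond the neural and endocrine families. Star reads did not always bring a high score in other families, where 49 of the 199 precursors with a star read scored under 10. A minimum score of 4 would remove all miR-124 entries, with up to 208 reads each, and keep miR-132 with 201.

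**Figure D3:**
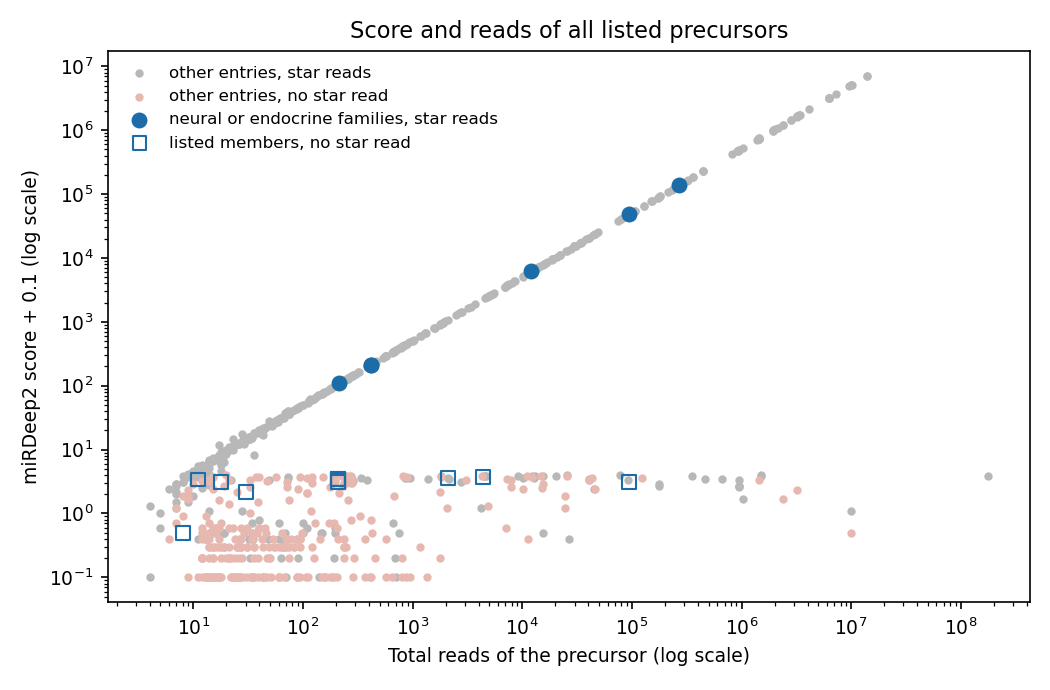
miRDeep2 score plus 0.1 against total reads, both on log axes, for 820 precursors; blue symbols are the 18 precursors of the neural and endocrine families, filled with star reads and open without. Filled symbols lie on the rising line from 111.6 to 136434.5, and open squares stay at 3.6 or below up to 93945 reads.

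miR-132 was the one family with another hairpin listed on the same strand within 10 kb. Its precursor on scaffold 907 (70443 to 70505, plus strand) had 201 mature reads on the 5p arm and 11 star reads on the 3p arm. A precursor with no seed match lay 485 bases upstream on the same strand (69958 to 70024), and 418 bases separated the pair. Its 3p arm has the same seed as that of miR-132 and shares 13 bases in a row with it, but it was listed under its 5p arm, with 88 mature and 1 star reads. Names in the list follow the mature arm, so such a hairpin is not named for the seed of its 3p arm, and no name is given to it here. Capitals mark the seed of the 3p arms:
miR-132-5p, 3p arm, 11 reads: uAACAGUCuacagccauggucgc
Upstream hairpin, 3p arm, 1 read: uAACAGUCuacagucauggcu
In both hairpins the 5p arm had more reads than the 3p arm, the arm known to be the main product in mammals. Farther off, 5254 bases from the miR-132 precursor, miR-2184 was listed on the minus strand with 705 mature and 187 star reads.

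Hairpins were also listed on the minus strand across both of these loci. Opposite miR-132, the precursor at 70441 to 70502 had 39 mature reads, and 20 bases in a row of its mature sequence are the reverse complement of the miR-132 3p arm. Opposite the upstream hairpin, the precursor at 69955 to 70023 had 268 mature and 2 star reads, 3.05 times the 88 mature reads of the plus strand. Its mature sequence is likewise the reverse complement of the 3p arm there over 20 bases. In miR-124, the precursor on scaffold 1079 (171214 to 171266, minus strand) was met by a plus-strand precursor at 171216 to 171268 with 106 mature reads and no star read. Its mature sequence is the reverse complement of the star arm of miR-124-3p over 18 bases, an arm for which no read was listed. That star arm is the same in all 5 copies, so reads within these 18 bases cannot be assigned to scaffold 1079 alone. Capitals mark the reverse complementary bases:
Minus strand at miR-132: ACCAUGGCUGUAGACUGUUAc
Minus strand at the upstream hairpin: GCCAUGACUGUAGACUGUUAcu
Plus strand at miR-124-3p: UCAAGGUCCGCUGUGAACac
In these 3 cases the mature sequence of the second hairpin lay opposite the star arm of the hairpin named first. Which arm lies opposite was not counted over all 26 pairs on opposite strands, so no pattern is stated. The star arms of the hairpins named first had 11, 1 and 0 reads, and the sequences opposite them had 39, 268 and 106. The miRDeep2 scores of the opposite hairpins were 0.1, 136.9 and 0, in the same order.

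**Figure D4:**
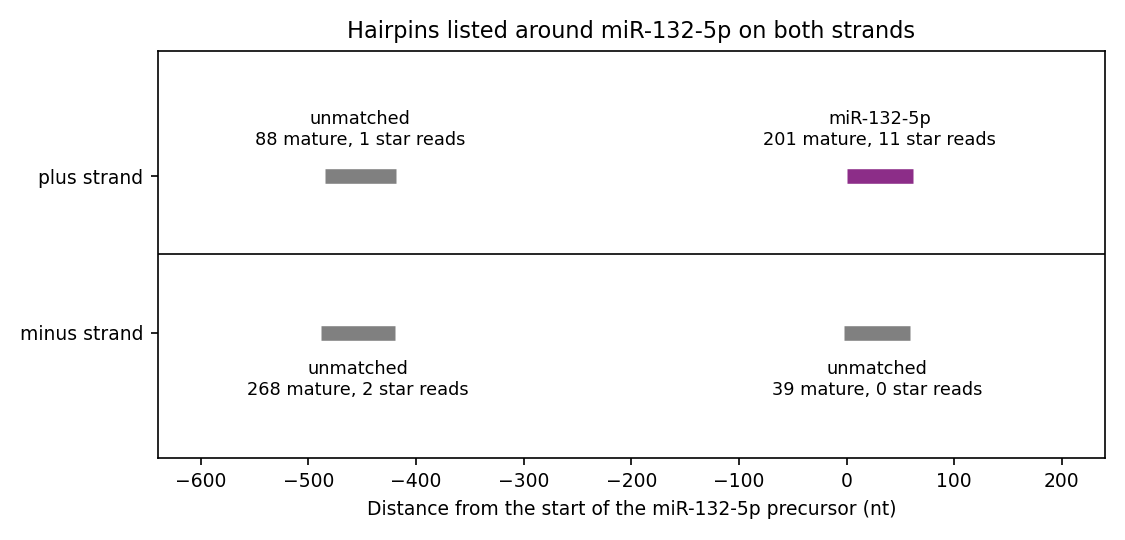
miR-132-5p and the 3 hairpins listed nearest to it, drawn to scale by distance in nt from the start of its precursor, plus strand above and minus strand below, with the mature and star reads of each. The minus-strand hairpin to the left has 268 mature reads, more than any of the other three drawn; miR-2184, farther off, is not drawn.

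Similar reverse complements were listed away from the precursors of miR-9 and miR-7. Unmatched precursors on scaffolds 6503, 672 and 5076 shared 1 mature sequence, with 152 mature and 25 star reads at each. It is closer to the reverse complement of the miR-9 star arm (19 matching bases) than to the miR-9-5p sequence itself (17), and their star sequence matched the reverse complement of miR-9-5p at 20 bases. On scaffold 2602 (24247 to 24311, plus strand), an unmatched precursor had 574 mature reads, and 21 bases of its star sequence, which had no reads, are the reverse complement of miR-7b. Its mature sequence matched the reverse complement of the miR-7b star arm at 17 bases. Such reverse complements are shown by their mature sequences:
Scaffolds 6503, 672 and 5076: acuuucgguuaucuagcuuuau
Scaffold 2602: agguagacugugacuuguugu
A hairpin resembles its own reverse complement, so these matches, unlike the overlaps on scaffolds 907 and 1079, rest on similarity alone. The precursors on scaffolds 6503, 672 and 5076 scored 88.7 to 89.1, and that on scaffold 2602 scored 0.

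Counted by name, 4 of the 6 names in these families (miR-7b, miR-9-5p, miR-124-3p and miR-132-5p) had an unmatched entry with at least 15 bases in a row reverse complementary to an arm, and better matched as reverse complement than directly. The same rule held for 4 of the 92 other seed-matched names (4.35%). With hairpins that overlap on opposite strands also counted where both are seed-matched, it held for 9 of the 92 (9.78%) and again for 4 of the 6. This rule was chosen after the values had been seen, names differ in their number of precursors, and no test was made. The unmatched entries for miR-7b and miR-124-3p scored 0 and that for miR-132-5p scored 0.1, all without a star read. Those for miR-9-5p scored 88.7 to 89.1, with 25 star reads each. The entries for the other names, miR-146b, miR-183-5p, miR-457b-5p and miR-101a, had 5, 1, 0 and 3 star reads. Scores of the entries for other names were not compared. By precursor, 2 of 18 (11.1%) overlapped an entry on the other strand, against 14 of 293 in other seed-matched families (4.78%). Their second strand held 19.4% (miR-132) and 51.0% (miR-124) of the reads of the first. In the 9 such pairs with a seed-matched entry of another family, that ratio ran from 0.00431% to 19.4% with a median of 0.0783%. The miR-132 ratio lay within this range and the miR-124 ratio above it. Over all 26 pairs, those of unmatched entries included, the median was 9.51% and the highest ratio 100%, so neither ratio was extreme in the whole list. Reads of the first strand are low at the miR-132 and miR-124 loci, with 201 and 208, and the 208 miR-124 reads are shared by 5 copies. The part of read depth in these ratios was not tested.

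**Figure D5:**
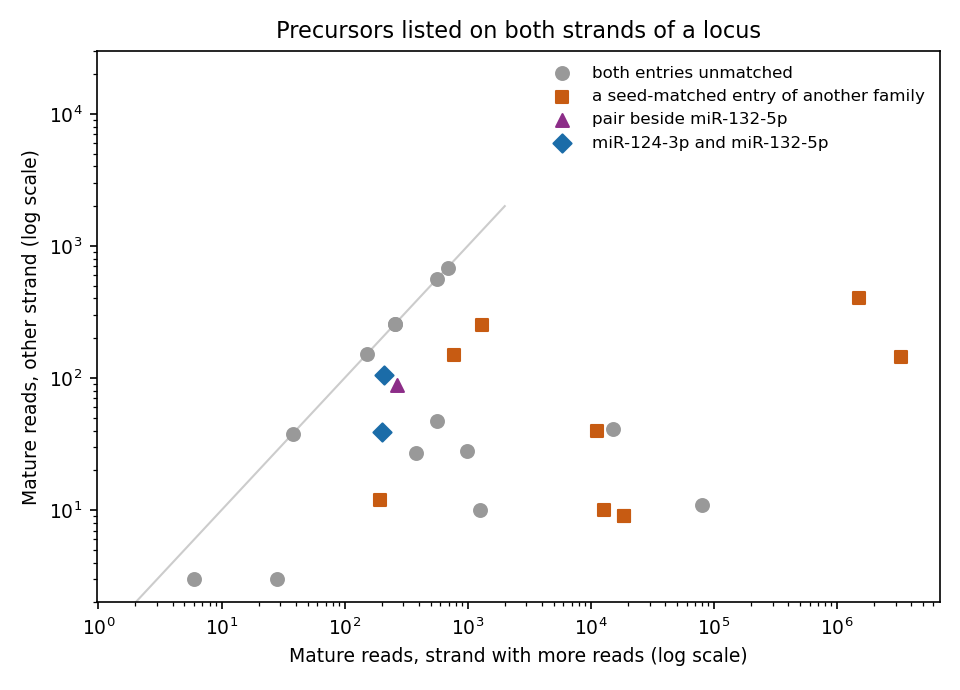
Mature reads of the strand with fewer reads against those of the strand with more, both on log axes, for 26 pairs of precursors that overlap on opposite strands; the line marks equal reads. The miR-132-5p and miR-124-3p pairs (diamonds, 39 and 106 reads on the second strand) lie nearer to the line than most pairs of other seed-matched families (squares).

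Folded in silico, the hairpins of these families had a median minimum free energy of -20.9 kcal/mol, from -32.4 for miR-132-5p to -16.7 for the miR-124-5p entry with the repeat, against a median of -23.7 kcal/mol for the 293 others. Their median length was 60 nt in both groups and their median GC content 45.3% against 45.9%. The mature sequence began with U in 16 of 18 precursors and in 205 of 293 others (70.0%). The mature arm was 5p in 10 of 18 precursors (55.6%) and in 168 of 293 others (57.3%). Those 10 were in miR-7, miR-9, miR-132 and miR-218, and the 3p cases were the 7 miR-124 entries and 1 of miR-218. None of these features was tested, because copies within a family are not independent.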

How the data were processed

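Small RNA libraries of 12 livers were sequenced, with a kit for miRNA isolation and a small RNA library kit per the labels, and bcl2fastq 2.17.1.14 was used per the submitters' processing notes. The authors deposited 1 list of 820 precursors predicted by miRDeep2, per the file headers, with whole-number read counts (mature, star, loop, total) and a miRDeep2 score, without normalization. No column names an eel, so the planned test between sites, and its fits with DESeq2 or without single eels, were not made. Not given in the sources used here are which libraries were pooled, their depth, the aligner, the mismatches allowed and the build name. Listed starts count from 0 and 1 was added; the length then agreed in 820 of 820 entries, and 25 of 26 pairs on opposite strands were exact reverse complements where they overlap. No genome or annotation of this assembly was used, so surrounding genes are not stated.

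Identical mature sequences were counted once, at their highest count. Star shares need at least 10 mature plus star reads, added together. Exact binomial intervals are at 95% and cover counting error only. Unmatched entries were taken as relatives with 15 bases in a row or 18 bases in common, on either strand, or on the scaffold of a member. This search used a single precursor for each distinct mature sequence, so other scaffolds with the same sequence were not checked by the scaffold rule. Every precursor of the families is named. The families and lists were chosen with earlier results of these data known. Functions were tested on simulated lists. Python 3.11.15, pandas 2.3.3, numpy 2.4.6, scipy 1.17.1, matplotlib 3.10.9 and RNAfold 2.7.2 were used.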

Additional observations from a re-analysis of the deposited data

Results flagged for a closer look

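Loop reads, which no comparison above uses, were listed for 1 of the 18 precursors. That precursor, miR-7b on scaffold 21638, had 5 loop reads, beside 13 star and 267587 mature reads. The other 17 precursors had none. In other seed-matched families 57 of 293 precursors had a loop read, and 33 had more than 3.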

How the results depend on the processing

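The share of these families, 0.140%, became 0.123% when the reads of all entries were added up, 0.115% when each seed counted through its most abundant sequence, 0.139% by total reads, and 0.405% at scores of at least 4 and of at least 10, which remove miR-122 with its score of 3.7. Alternatives chosen after seeing the data gave 0.106% with contained sequences counted once and 0.140% with unmatched relatives added. For miR-7 the share of 0.134% became 0.118%, 0.109%, 0.133%, 0.391% at both scores, and 0.0992% with contained sequences counted once. A score of at least 1 and minimum reads of 10 or 100 left both shares within their intervals. The list of 18 precursors shrank to 6 at scores of at least 4 and of at least 10. The median star share, 0% over 17 precursors, was 0.000530% with at least 1000 reads and 1.94% at a minimum score of 10, a setting that keeps only precursors with star reads. Precursors within 10 kb of a member numbered 1 on the same strand and 5 on either strand; distances of 3 and 50 kb also gave 1. The number of members with star reads stayed within 1.5 times in every alternative run. No paired analysis was possible because the list has no columns for single eels. Depth limits mainly miR-9, miR-124 and miR-132, with 398 reads or fewer a precursor.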

Other observations

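Other families known from the nervous system were picked after the names in the list were seen. miR-137-3p, known from neuronal differentiation, had 6 reads at 1 precursor. miR-153a-3p, known from the brain, had 867 reads over 2 distinct sequences, 796 of them in the more abundant one. miR-135c had 778 reads over 3 sequences. miR-338, known in mammals from oligodendrocytes, had more, with 4322 reads of 1 sequence listed at 3 precursors; its star reads at these were 0, 331 and 4. All 4 families together therefore stayed below the 12096 reads of the most abundant miR-218b sequence.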
